A study of Homo sapiens with 18 samples.

Results

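The genes of the oxidative phosphorylation machinery were followed across all 9 groups of RNA-seq libraries from the human melanoma cell lines CHL1 and A375. Members were taken by symbol: names beginning NDUFA, NDUFB, NDUFC, NDUFS or NDUFV with a digit, COX4 to COX8, UQCR, SDHA to SDHD, ATP5, and the protein-coding genes MT-ND, MT-CO, MT-CYB and MT-ATP of the mitochondrial genome. Of the 20705 genes in the count table, 90 matched, 5 of them pseudogenes that were left out, and 85 remained. They comprised 72 genes of the nuclear genome and all 13 protein-coding genes of mitochondrial DNA. Among the nuclear members, 67 encode a subunit of a respiratory complex: 32 of complex I, 4 of complex II, 8 of complex III, 11 of complex IV and 12 of complex V. The other 5 only share the name pattern: ATP5S, ATP5SL, COX7A2L, the readthrough NDUFC2-KCTD14 and the antisense RNA NDUFA6-AS1. NDUFA4 is counted here with complex I by its name, although the protein is known as a complex IV subunit.

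Both lines were labelled wild type, which leaves out mutations that the study's methods give: CHL1 has unmutated BRAF and NRAS and mutant p53, and A375 has mutant BRAF and unmutated p53. Every group received either DMSO, the drug vehicle, or an inhibitor. The treatments were palbociclib at 1 µM for 72 hours or 6 days, which blocks the kinases CDK4 and CDK6 (CDK4/6i), and GSK3326595 at 500 nM for 72 hours, which blocks the arginine methyltransferase PRMT5 (PRMT5i). CHL1 had one control, kept in DMSO for 72 hours, so its 3 treated groups share that control and its 6-day samples have no control of their own time. A375 had a control for each time, and its 72-hour CDK4/6i and PRMT5i groups share the 72-hour control. Each group held 2 libraries, named replicate 1 and 2 below. The methods say that conditions were grown in replicate, and neither they nor the labels say how separate the cultures were, so p-values measure the spread between these libraries, which may be partly technical. Each line is a single established culture model, and CHL1 and A375 were grown in different media.

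Oxidative phosphorylation is carried out by 5 complexes of the inner mitochondrial membrane. Complexes I and II take electrons from NADH and succinate, complex III passes them on, complex IV reduces oxygen, and complex V, the ATP synthase, uses the proton gradient that complexes I, III and IV build. Complex II is encoded entirely in the nucleus, while the other complexes combine nuclear subunits with a core encoded in mitochondrial DNA, which has its own polymerase and makes long transcripts from both strands that are cut into single RNAs. The nuclear factors NRF1, GABP and YY1 are known for binding promoters of nuclear subunit genes.

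Total counts on genes lay between 16213475 and 37424081 per library. The 13 mitochondrial genes took 0.334 to 1.66% of the counts and the 72 nuclear members 0.290 to 0.666%. The mitochondrial ribosomal RNAs took at most 0.0496% after poly-A selection. Of 8 melanocyte lineage markers looked for, 6 were in the count table, and 4 averaged at least 1 CPM in CHL1 and 3 in A375. MITF (mean 82.1 CPM in CHL1, 128 CPM in A375) and S100B (42.1 and 31.2 CPM) did so in both lines. DCT and TYRP1 passed 1 CPM in CHL1 only and PMEL in A375 only, and TYR stayed at 3 counts or fewer in every CHL1 library. Some markers of other cell types also averaged at least 1 CPM, such as LUM and PTPRC in CHL1 and KRT18 and PDGFRB in A375. Per library, the fibroblast markers summed to 18.62 to 42.13 CPM in CHL1 and 20.78 to 58.97 CPM in A375. The melanocyte markers summed to 143 to 268.2 and 121.5 to 271.3 CPM. CPM are counts scaled to a common library size, by TMM within a line unless stated. A GC trend was measured as the log2 level of the GC-richest 10% of genes less the level of the GC-poorest 10%, against the line's median library. PRMT5i in CHL1 had -2.88 and -2.22, the 6-day control of A375 had -2.55 and -1.26, and the other 14 libraries lay between -0.22 and 0.56. Every result below on CHL1 PRMT5i or on the A375 control of 6 days rests on libraries with this trend. The median GC content of the longest transcript was 47.3% for nuclear members (34.1 to 64.9%), 44.3% for mitochondrial members (39.6 to 47.7%) and 47.9% for all genes. In bulk RNA, fewer cells with a transcript and less of it per cell cannot be told apart.

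Nuclear members were expressed at a median of 34.5 CPM in CHL1 and 51.1 CPM in A375. The highest was ATP5B, the catalytic beta subunit of the ATP synthase, with means of 535 and 802 CPM. In CHL1, 4 nuclear members averaged below 1 CPM: the isoforms COX6B2, COX7A1 and COX7B2 and the readthrough NDUFC2-KCTD14. In A375 only NDUFC2-KCTD14 did so. Per kilobase of transcript, MT-CO1, the catalytic subunit of complex IV, was the most abundant mitochondrial gene in the 72-hour control of both lines, with 2094 and 1927 CPM per kb in the CHL1 replicates and 1990 and 1478 CPM per kb in A375. MT-CO3 followed with 1307 and 1070 CPM per kb in CHL1 and 424 and 353 CPM per kb in A375. MT-ATP8 was lowest in both lines, with 37.5 and 29.3 against 4.82 and 4.08 CPM per kb.

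Mitochondrial transcripts were higher in the CHL1 control than in the A375 control of 72 hours. With all 18 libraries in 1 fit and edgeR's quasi-likelihood test, 12 of 13 mitochondrial genes were higher in the CHL1 control than in the A375 control of 72 hours, and none was lower. Among the 72 nuclear members, 16 were higher and 20 lower, so that 28 members in all were higher and 20 lower. Of all genes, 29.3% were called higher and 29.6% lower (Benjamini-Hochberg adjusted p under 0.05 over all 20705 genes, the rule for every call below). The median log2 fold change was 2.90 for mitochondrial members, -0.09 for nuclear members and -0.02 for all genes. The 72-hour A375 libraries belong to another library set than the CHL1 libraries, so cell line and library set cannot be told apart here. The A375 control of 6 days, which is of the same set as CHL1, had 8405 and 7660 CPM summed over the 13 mitochondrial genes. The CHL1 control had 10506 and 9340 CPM. A375 under CDK4/6i for 6 days, also of that set, had 5497 and 4117 CPM, beside 4407 and 3449 CPM in the A375 control of 72 hours. These sums were scaled within each line, and the 6-day control carries the GC trend.

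The size of the difference varied widely along the mitochondrial genome. MT-ND2, a membrane subunit of complex I, had 725 and 635 CPM in the CHL1 control libraries and 40.2 and 34.7 CPM in A375, on the scale of all 18 libraries, a log2 fold change of 4.18 ± 0.37 (SE, adjusted p = 1.572e-08, edgeR). MT-CO3 had 1109 and 905 against 306 and 256 CPM, a log2 fold change of 1.84 and the smallest among the 12 that were called. MT-CO1 had 3495 and 3209 CPM in CHL1 and 2823 and 2110 CPM in A375, with a log2 fold change of 0.44 ± 0.22 that was not called (adjusted p = 0.09527, edgeR). Both CHL1 libraries lay above both A375 libraries for all 13 genes, MT-CO1 included, and the share of all genes so placed was not counted.

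Some reads of a mitochondrial gene can also match copies of mitochondrial DNA in the nuclear genome. Of all 150-base windows of MT-CO1, 14.5% had an exact copy in a nuclear chromosome of the reference, as did 15.7% of those of MT-ND2 and 1.12% of those of MT-ND1, while the other 10 genes had none. The counts of MT-CO1, MT-ND2 and MT-ND1 are uncertain to that extent. MT-ATP8 overlaps MT-ATP6, MT-ND4L overlaps MT-ND4, and MT-ND6 lies on the strand opposite to the others. The strandedness of the libraries was not stated in the sources used here, so reads of such neighbours cannot be fully separated.

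**Figure D1:**
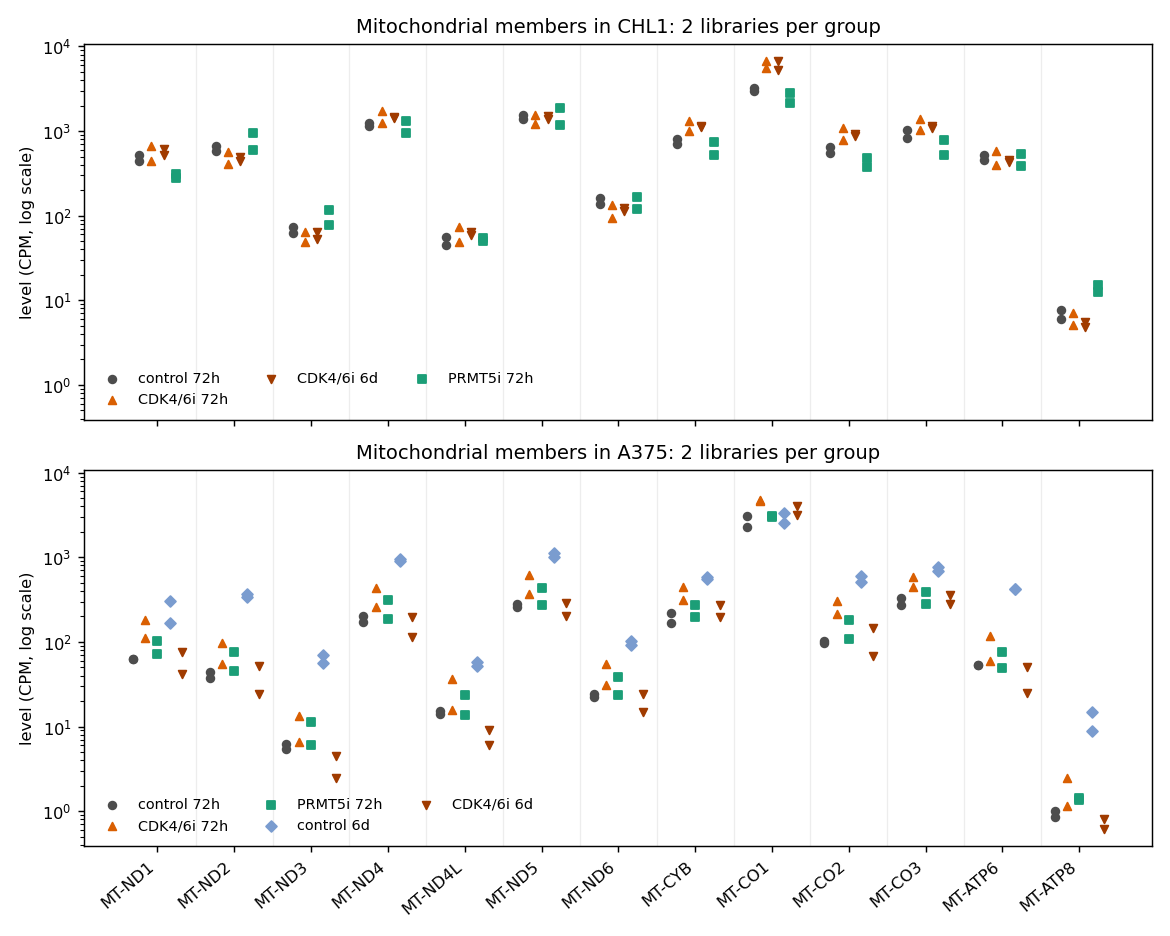
Level of each of the 13 mitochondrial protein-coding genes (CPM, log axis) in every library, CHL1 in one panel and A375 in the other, with 2 points per gene and group. In A375 both control libraries of 6 days sit above all other A375 libraries for 11 genes. MT-ND1 overlaps CDK4/6i at 72 hours and MT-CO1 overlaps several groups. The share of all genes with this pattern was not counted.

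Nuclear members differed between the controls in both directions. COX7B2, an isoform of a small complex IV subunit that is otherwise known from testis, had 1 read in each CHL1 control library and at most 1 read in any of the 8 CHL1 libraries, against 27.2 and 22.8 CPM in the A375 control. Against a floor of 3 counts per library it was at least 238-fold higher in A375. The other isoforms of restricted expression were also lower in CHL1. COX7A1, the heart and muscle isoform, had a log2 fold change of -1.50 ± 0.40 (adjusted p = 0.003644, edgeR), NDUFA4L2, known as a hypoxia-induced relative of NDUFA4, of -1.30 ± 0.38 and COX6B2, the testis form, of -1.73 ± 0.48. In CHL1 COX6B2 and COX7A1 stood at 0.385 and 0.665 CPM on average. ATP5G2 and ATP5G3, which encode the same c subunit of the ATP synthase rotor, moved apart, with -0.54 ± 0.18 for ATP5G2 and 0.59 ± 0.20 for ATP5G3.

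UQCRB, which encodes a small complex III subunit, was the nuclear member with the largest rise in CHL1 over A375, from 20.7 and 23.5 to 67.6 and 61.6 CPM (log2 fold change 1.55 ± 0.24, adjusted p = 2.177e-05, edgeR). It was followed by the complex I accessory subunit NDUFA6 (1.32 ± 0.20), whose reads may be shared with its antisense neighbour NDUFA6-AS1, and by COX6C (0.96 ± 0.18), NDUFS5 (0.93 ± 0.23) and NDUFC1 (0.89 ± 0.21). On the lower side, after COX7B2 and COX7A1, stood the complex I accessory subunit NDUFB7 (-1.38 ± 0.25) and NDUFA4L2. Of complex II, SDHC and SDHD were lower in CHL1 (-0.67 ± 0.15 and -0.75 ± 0.23), while SDHA had 0.02 ± 0.16 and SDHB -0.16 ± 0.18 and were not called. By complex, 11 were higher and 9 lower of 32 in complex I, 0 and 2 of 4 in complex II, 2 and 2 of 8 in complex III, 2 and 4 of 11 in complex IV and 1 and 2 of 12 in complex V.

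Promoter windows, from 250 bases before to 50 after a transcript start, were available from RefSeq (GRCh38.p14) for 58 of the 72 nuclear members, in 70 windows. They were searched on both strands for the NRF1 core GCATGCGC, the ETS site CCGGAAG that GABP binds, and the YY1 motif AAGATGGCG. The NRF1 core was found in 21.4% of the members' windows, against 3.05% of all 35116 windows and 4.12% of the 17812 windows of genes in the count table. The ETS site was found in 24.3%, 10.3% and 14.1%, and the YY1 motif in 12.9%, 1.75% and 2.77%. At least 1 of the 3 occurred in 30 of the members' windows (42.9%), against 14% of all windows and 19.3% of those of genes in the table. A match of these letters is a description and not evidence of a bound site.

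The 250 bases before the start are shown for 3 members whose levels the results turn on: COX5B, a complex IV subunit that fell under PRMT5i in CHL1, and the complex I subunits NDUFA5 and NDUFS4, which rose there. Capitals mark a motif match on either strand, and each sequence is given 5′ to 3′ on the gene's own strand. COX5B (chr2:97645812-97646061, plus strand, 62.4% GC) held an NRF1 core and an ETS site, NDUFA5 (chr7:123557819-123558068, minus strand, 52.8% GC) held an NRF1 core in the only 1 of its 3 windows with a match, and NDUFS4 (chr5:53560389-53560638, plus strand, 36.8% GC) held none before its start.
COX5B: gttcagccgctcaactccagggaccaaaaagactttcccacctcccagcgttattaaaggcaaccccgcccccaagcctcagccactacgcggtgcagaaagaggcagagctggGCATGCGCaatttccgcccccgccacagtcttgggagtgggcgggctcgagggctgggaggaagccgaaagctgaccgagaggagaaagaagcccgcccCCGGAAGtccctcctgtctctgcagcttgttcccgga
NDUFA5: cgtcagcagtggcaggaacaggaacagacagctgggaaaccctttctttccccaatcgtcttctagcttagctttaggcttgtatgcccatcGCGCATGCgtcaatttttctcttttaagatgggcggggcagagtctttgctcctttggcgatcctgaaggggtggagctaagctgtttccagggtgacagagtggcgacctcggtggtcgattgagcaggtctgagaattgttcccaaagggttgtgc
NDUFS4: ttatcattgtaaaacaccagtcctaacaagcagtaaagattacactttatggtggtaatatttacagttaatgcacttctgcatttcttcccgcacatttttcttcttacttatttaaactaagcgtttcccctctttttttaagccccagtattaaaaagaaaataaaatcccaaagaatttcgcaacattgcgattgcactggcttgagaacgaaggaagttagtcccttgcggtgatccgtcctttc

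In CHL1, CDK4/6i for 72 hours moved 1 member. MT-CO1 rose from 3229 and 2972 CPM in the control to 6712 and 5540 CPM, a log2 fold change of 0.98 ± 0.19 (adjusted p = 0.01669, edgeR). No nuclear member was called, and no member was lower, where 2.27% of all genes were called higher and 2.72% lower. Median log2 fold changes were 0.04 for nuclear members, 0.21 for mitochondrial members and 0.00 for all genes. MT-CO2, from 645 and 553 to 1074 and 788 CPM, and MT-CYB, from 808 and 707 to 1326 and 990 CPM, had log2 fold changes of 0.64 and 0.61 with both treated libraries above both controls, and missed the threshold (adjusted p = 0.08134 and 0.1014, edgeR). The remaining mitochondrial genes were not called either. MT-ND6, the gene of the opposite strand, had 135 and 94.9 CPM against 160 and 139 CPM in the control, at -0.38 the lowest of the 13. A fit of only the 4 libraries compared called 2031 of all 20705 genes higher and 2171 lower, so calls rose over the whole table. With only the 4 libraries compared in the fit, MT-CO1, MT-CO2 and MT-CYB and 3 nuclear members were called, and with any of these 4 libraries left out none was.

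After 6 days of CDK4/6i, CHL1 had 3 members called against the 72-hour control. Of all genes, 8.83% were called higher and 7.8% lower, so 2 members higher and 1 lower of 85 is a smaller share than over the whole table. MT-CO1 stood at 6698 and 5285 CPM (log2 fold change 0.95 ± 0.19, adjusted p = 0.007383, edgeR). NDUFS4, an accessory subunit of complex I, fell from 67.2 and 69.5 to 40.7 and 36.8 CPM (-0.82 ± 0.15, adjusted p = 0.0045, edgeR). NDUFA5, another accessory subunit of complex I, rose from 68.3 and 54.6 to 186 and 94.6 CPM (1.19 ± 0.28, adjusted p = 0.01457, edgeR), and its 2 treated libraries differed by more than the lower of them stood above the controls. The direct comparison of 6 days with 72 hours called none of the 85 members, with 3 at an unadjusted p under 0.05 and none by DESeq2, where 0.0145% of all genes were called higher and 0% lower. At 72 hours NDUFS4 already stood at 43.9 and 48.9 CPM, below both controls, and missed the threshold (-0.56 ± 0.15, adjusted p = 0.05252, edgeR). The number of calls at 6 days ranged from 0 to 4 when a library was left out, with 0 without control replicate 2 and 1 without control replicate 1.

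In A375, CDK4/6i for 72 hours raised transcripts of mitochondrial DNA. Of the 13 mitochondrial genes, 6 rose and none fell, and of the 72 nuclear members 1 fell and none rose, so that 6 members rose and 1 fell where 6.22% of all genes were called higher and 7.11% lower. In both treated libraries all 13 mitochondrial genes stood above both controls. The share of all genes separated in this way was not counted, and the 13 genes share their libraries. Median log2 fold changes were 0.89 for mitochondrial members, 0.23 for nuclear members and 0.00 for all genes. MT-CO2, a subunit of the electron-accepting core of complex IV, went from 104 and 97.3 to 215 and 308 CPM (1.38 ± 0.31, adjusted p = 0.008064, edgeR). MT-ND1, a membrane subunit of complex I, went from 62.2 and 62.4 to 110 and 181 CPM (1.22 ± 0.32, adjusted p = 0.01799, edgeR). MT-CYB, the only complex III subunit of mitochondrial DNA, went from 219 and 169 to 315 and 444 CPM (0.97 ± 0.23), MT-ND5 from 277 and 258 to 369 and 624 CPM (0.89 ± 0.27), MT-CO1 from 3069 and 2278 to 4717 and 4565 CPM (0.80 ± 0.22) and MT-CO3 from 333 and 277 to 447 and 583 CPM (0.76 ± 0.22). The 7 that were not called had log2 fold changes of 0.72 to 0.97.

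Replicate 2 of A375 CDK4/6i was above replicate 1 for 12 of these 13 genes, and MT-CO1 was the exception. NDUFS4 was the nuclear member that fell, from 69.3 and 76.9 to 48.8 and 47.8 CPM (-0.60 ± 0.18, adjusted p = 0.04292, edgeR), and was not called under median-of-ratios scaling. In the 72-hour A375 groups, deviations of same-numbered libraries correlated by 0.192 to 0.422 over 15073 genes. The summed level of the 13 mitochondrial genes did not deviate together. Replicates 1 and 2 had 4407 and 3449 CPM in the control, 6599 and 7460 CPM under CDK4/6i and 4218 and 4987 CPM under PRMT5i. With the replicate number as a block, in a fit of the 6 libraries of 72 hours, 47 members were called higher and 4 lower. All 13 mitochondrial genes were among those higher, where 4269 of all 20705 genes were called higher and 4483 lower. Such a fit leaves 2 residual degrees of freedom. The same 6 libraries without the block gave 24 higher and 1 lower, 10 of them mitochondrial genes. In that fit 3049 of all 20705 genes were called higher and 3375 lower. With a library left out, calls fell to 1 without control replicate 1 and to 0 without control replicate 2 or CDK4/6i replicate 2.

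PRMT5i in A375 called no member, with edgeR and with DESeq2, where 0.874% of all genes were called higher and 1.74% lower, and 7 members had an unadjusted p under 0.05. The values nevertheless leaned upward, with a positive log2 fold change for 76 of 85 members and medians of 0.28 for nuclear members, 0.42 for mitochondrial members and 0.00 for all genes. MT-CO2 had 107 and 179 CPM against 104 and 97.3 CPM, and MT-ATP6, a subunit of the proton channel of complex V, 48.8 and 75.4 CPM against 53.0 and 53.3 CPM. Replicate 1 of PRMT5i was within or below the range of the controls for most mitochondrial genes. Only 4 of the 13 had both treated libraries above both controls, and the share of all genes so placed was not counted. With the replicate block in the 6 libraries of 72 hours, 46 members were called higher and none lower, 8 of them mitochondrial. Without the block these libraries gave 10 higher. The counts over all genes in both fits are not given here.

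**Figure D2:**
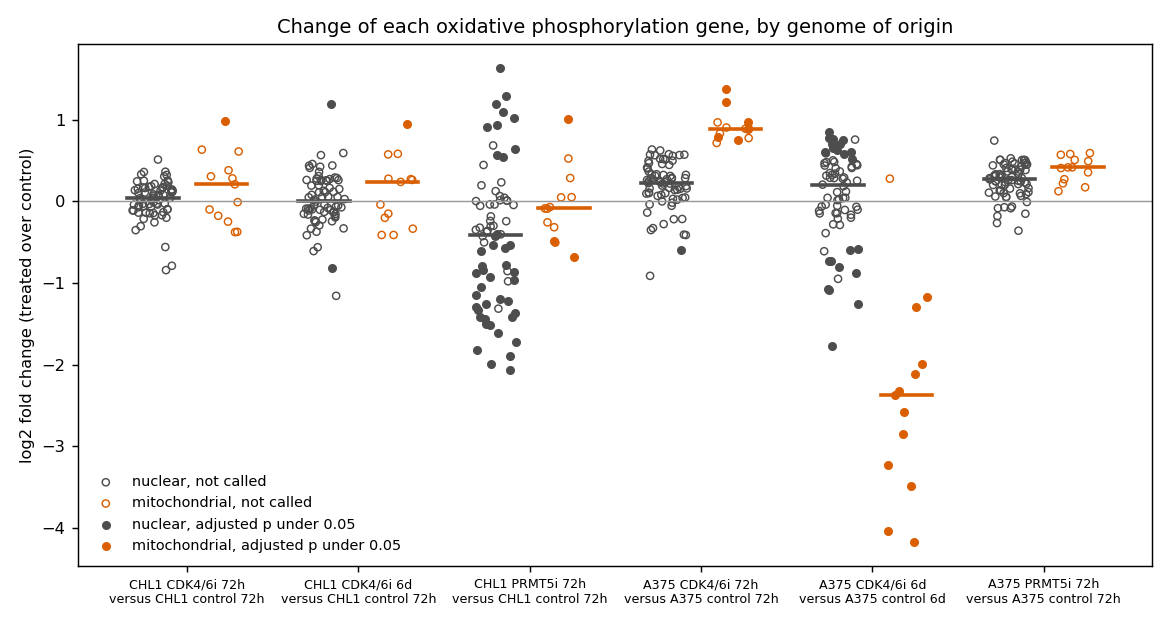
Log2 fold change of each nuclear (grey) and mitochondrial (orange) member in the 6 comparisons of treated with control cells, filled where the adjusted p was under 0.05, with a line at each median. The medians of the mitochondrial members lie at 0.89 in A375 CDK4/6i at 72 hours and at -2.37 at 6 days, beside 0.23 and 0.20 for nuclear members.

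After 6 days of CDK4/6i, A375 showed the widest separation of nuclear from mitochondrial members among the 6 comparisons of treated with control cells. Against the 6-day control 12 of 13 mitochondrial genes fell and none rose, while 12 nuclear members rose and 10 fell. In all, 12 members rose and 22 fell where 21.8% of all genes were called higher and 21.3% lower. Median log2 fold changes were -2.37 for mitochondrial members, 0.20 for nuclear members and 0.10 for all genes. The 6-day control is one of the 2 groups that stand apart in GC content. Without its replicate 2, the one with the weaker GC trend, these medians were -2.48 for mitochondrial members, 0.45 for nuclear members and 0.16 for all genes. Without its replicate 1 they were -2.41, -0.01 and 0.08.

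MT-ND3, a small membrane subunit of complex I, fell from 70.1 and 55.7 CPM in the 6-day control to 4.5 and 2.46 CPM (log2 fold change -4.18 ± 0.38, adjusted p = 3.104e-06, edgeR). MT-ATP8 fell from 14.9 and 8.7 to 0.8 and 0.6 CPM (-4.05 ± 0.39, adjusted p = 5.038e-06, edgeR). MT-ATP6 fell from 421 and 422 to 50.2 and 24.6 CPM (-3.49 ± 0.35, adjusted p = 6.303e-06, edgeR). In each of these the groups were far apart and the 2 libraries of a group close by comparison. MT-ND2 (-3.23), MT-ND4L (-2.86), MT-ND4 (-2.58), MT-CO2 (-2.37), MT-ND6 (-2.32), MT-ND5 (-2.12) and MT-ND1 (-1.99) followed, and MT-CYB (-1.30) and MT-CO3 (-1.17 ± 0.22, adjusted p = 0.0007041, edgeR) fell least. MT-CO1 had 3322 and 2570 CPM in the control and 4013 and 3139 CPM under CDK4/6i (0.28 ± 0.22, adjusted p = 0.3216, edgeR), with overlapping groups.

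The levels after 6 days of CDK4/6i were close to those of the other A375 libraries, and the 6-day control was the group that differed from them. MT-ATP6 had 53.0 and 53.3 CPM in the 72-hour control, 58.9 and 116 CPM under CDK4/6i at 72 hours, and 421 and 422 CPM only in the 6-day control. The 6-day CDK4/6i libraries were also set against the 72-hour control, which differs from them in time and library set. There 8 members were lower, 1 of them mitochondrial, and none higher, where 3362 of all 20705 genes were called higher and 3097 lower. Only 2 of the 34 calls made with the 6-day control were found again in the same direction. Between the 6-day and the 72-hour control, time in culture, library set and GC trend cannot be told apart. The 6-day CDK4/6i libraries share time and library set with the 6-day control. They differ from it in palbociclib and in GC trend, with -0.19 and -0.22 beside -2.55 and -1.26. Which of these the difference goes with was not tested. The 12 calls on mitochondrial genes were made in the fit with a GC correction as well, where MT-ND3 had -3.66 and MT-ATP6 -3.33.

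The response to CDK4/6i at 6 days minus that at 72 hours, each against its own control, was tested in the A375 fit. It called 12 mitochondrial genes, NDUFA5 and SDHD lower, 14 in all, and none higher, where 0.174% of all genes were called higher and 0.908% lower. The difference was largest for MT-ATP8 (-5.02 ± 0.57, adjusted p = 0.0003496, edgeR) and MT-ND3 (-4.95 ± 0.51, adjusted p = 0.0001744, edgeR). MT-CO1 again was not called (-0.52 ± 0.31, adjusted p = 0.3593, edgeR). The median difference was -3.47 for mitochondrial members, -0.09 for nuclear members and 0.08 for all genes. With the GC correction it was -3.39 for mitochondrial members, and NDUFA5 was not called.

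Among nuclear members at 6 days in A375, the 5 largest falls were those of NDUFA5, NDUFS4, SDHD, NDUFC1 and COX7B2. NDUFA5 had 159 and 106 CPM in the 6-day control and 41.5 and 35.7 CPM under CDK4/6i (-1.78 ± 0.21, adjusted p = 2.603e-05, edgeR), beside 34.6 and 46.4 CPM in the 72-hour control. NDUFS4 had 134 and 97.7 against 48.1 and 49.2 CPM (-1.25 ± 0.18, adjusted p = 0.00012, edgeR). SDHD, a membrane anchor of complex II, had 154 and 112 against 66.7 and 59.1 CPM (-1.08 ± 0.19). NDUFC1 had a log2 fold change of -1.08 ± 0.22, and COX7B2 fell from 76.3 and 59.3 to 34.6 and 39.2 CPM (-0.88 ± 0.20). For COX7B2 the 72-hour A375 groups lay lower still, at 21.1 to 29.6 CPM. With the GC correction all 5 were still called, with -0.63 for NDUFA5, -0.94 for NDUFS4, -0.52 for SDHD, -1.69 for NDUFC1 and -0.51 for COX7B2.

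The 5 largest rises were smaller. NDUFV1, the flavoprotein that binds NADH in complex I, had 42.7 and 63.9 CPM in the 6-day control and 100 and 91.9 CPM under CDK4/6i (0.85 ± 0.19, adjusted p = 0.002686, edgeR). NDUFV3 rose by 0.77 ± 0.21, NDUFB7 by 0.76 ± 0.24, ATP5B by 0.76 ± 0.22 and NDUFB11 by 0.71 ± 0.23 on the log2 scale. The median GC content was 49.7% for the 12 nuclear members that rose and 41.9% for the 10 that fell. With the GC correction, 15 members were higher and 22 lower, where 2956 of the 13422 genes in that fit were called higher and 2878 lower. In direction, 25 of the 34 calls were shared. NDUFB7 and ATP5B were no longer called (0.31 and 0.43, adjusted p = 0.09038 and 0.07343, edgeR). By complex, 8 rose and 4 fell of 32 in complex I, 0 and 1 of 4 in complex II, 1 and 1 of 8 in complex III, 0 and 1 of 11 in complex IV and 2 and 2 of 12 in complex V. SDHA, SDHB and SDHC had log2 fold changes of 0.46 ± 0.19, 0.25 ± 0.21 and 0.29 ± 0.18 and were not called.

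PRMT5i in CHL1 moved more nuclear members than any other treatment. Of 72 nuclear members 10 rose and 32 fell, and of 13 mitochondrial genes 1 rose and 2 fell. Together 11 members rose and 34 fell where 26.4% of all genes were called higher and 27.6% lower. Median log2 fold changes were -0.41 for nuclear members, -0.09 for mitochondrial members and 0.00 for all genes. With the GC correction these medians were -0.53 for nuclear and -0.41 for mitochondrial members, so that the gap between them was smaller. Both treated libraries stand apart in GC content, and the median GC content was 50.6% for the 32 nuclear members that fell, 39.8% for the 10 that rose and 43.5% for the 30 not called. With a GC correction, 7 members were higher and 42 lower, and 29 of the 45 calls were shared in direction. Of the 12855 genes in that fit, 2351 were called higher and 2295 lower. Across the 68 nuclear members with a mean of at least 1 CPM and a GC value, Spearman's rho between GC content and log2 fold change was -0.676, beside -0.838 over 12855 genes. The genes share their libraries, so rho is given as a description.

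The calls on nuclear subunits fell into all 5 complexes. In complex IV 5 of 11 fell and none rose, in complex V 6 of 12 fell and 2 rose, in complex III 4 of 8 fell and 1 rose, in complex II 2 of 4 fell and 1 rose, and in complex I 13 of 32 fell and 6 rose. Summed over the 12 nuclear subunit genes of complex V, the level was 1553 and 1381 CPM in the control and 1083 and 966 CPM under PRMT5i, and over the 11 of complex IV 545 and 481 against 348 and 321 CPM. Over the 8 of complex III it was 674 and 612 against 533 and 472 CPM, and over the 4 of complex II 326 and 314 against 264 and 296 CPM. Each of these sums was lower in both treated libraries than in either control. The sum over the 32 nuclear genes of complex I was 1303 and 1340 CPM against 1326 and 1185 CPM in the control, with overlapping groups.

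The 5 largest falls were in 4 different complexes. ATP5D, the delta subunit of the ATP synthase, fell from 47.7 and 43.9 to 9.16 and 13.9 CPM (-1.99 ± 0.21, adjusted p = 8.321e-05, edgeR). UQCRC1, a core protein of complex III, fell from 162 and 150 to 33.2 and 50.8 CPM (-1.89 ± 0.20). NDUFV1 fell from 47.8 and 40.6 to 9.13 and 15.8 CPM (-1.83 ± 0.23). COX5B, whose upstream sequence is shown above, fell from 65.7 and 63.7 to 14.6 and 24.6 CPM (-1.72 ± 0.22), and NDUFA3 had -1.61 ± 0.27. All 5 were still called lower with the GC correction, at smaller sizes: -0.63 for ATP5D, -0.78 for UQCRC1, -0.67 for NDUFV1, -1.07 for COX5B and -0.66 for NDUFA3.

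The 5 largest rises were those of NDUFA5, ATP5L, NDUFS4, UQCRB and SDHD. NDUFA5 rose from 68.3 and 54.6 to 159 and 224 CPM (1.64 ± 0.29, adjusted p = 0.0005465, edgeR). ATP5L, the g subunit of the ATP synthase, rose from 20.2 and 16.2 to 43.2 and 45.8 CPM (1.29 ± 0.18). NDUFS4 rose from 67.2 and 69.5 to 155 and 158 CPM (1.2 ± 0.15, adjusted p = 0.0001188, edgeR). UQCRB rose from 62.5 and 57 to 155 and 100 CPM (1.09 ± 0.20) and SDHD from 45.2 and 43.5 to 76.8 and 103 CPM (1.02 ± 0.25). In every case both treated libraries lay above both controls, which the rule for naming them required. With the GC correction NDUFS4 (0.67, adjusted p = 0.001111) and ATP5L (0.44, adjusted p = 0.02672) were still called, while NDUFA5 (0.31, adjusted p = 0.1949), UQCRB (0.18, adjusted p = 0.4644) and SDHD (0.17, adjusted p = 0.5326) were not. The part of GC content in these differences was not tested beyond this correction.

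Complex II held both directions. SDHA, its flavoprotein, fell from 119 and 109 to 58.5 and 68.4 CPM (-0.84 ± 0.15), SDHB, its iron-sulfur subunit, fell from 80.4 and 81.2 to 60.6 and 61.7 CPM (-0.40 ± 0.14), and SDHC had 68.3 and 63.2 against 81.1 and 80.6 CPM (-0.30 ± 0.14, not called), while SDHD rose. The 2 catalytic subunits therefore fell, and of the 2 membrane anchors 1 rose. Of the isoform genes, ATP5G2 (-0.88 ± 0.16), ATP5G3 (-0.43 ± 0.15) and COX6B2 (-2.07 ± 0.69) fell, the latter with at most 0.361 CPM in the libraries compared. COX7A1 (-0.98 ± 0.46) and NDUFA4L2 (-0.85 ± 0.44) were not called, and COX7B2 was at the floor in all CHL1 groups.

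**Figure D3:**
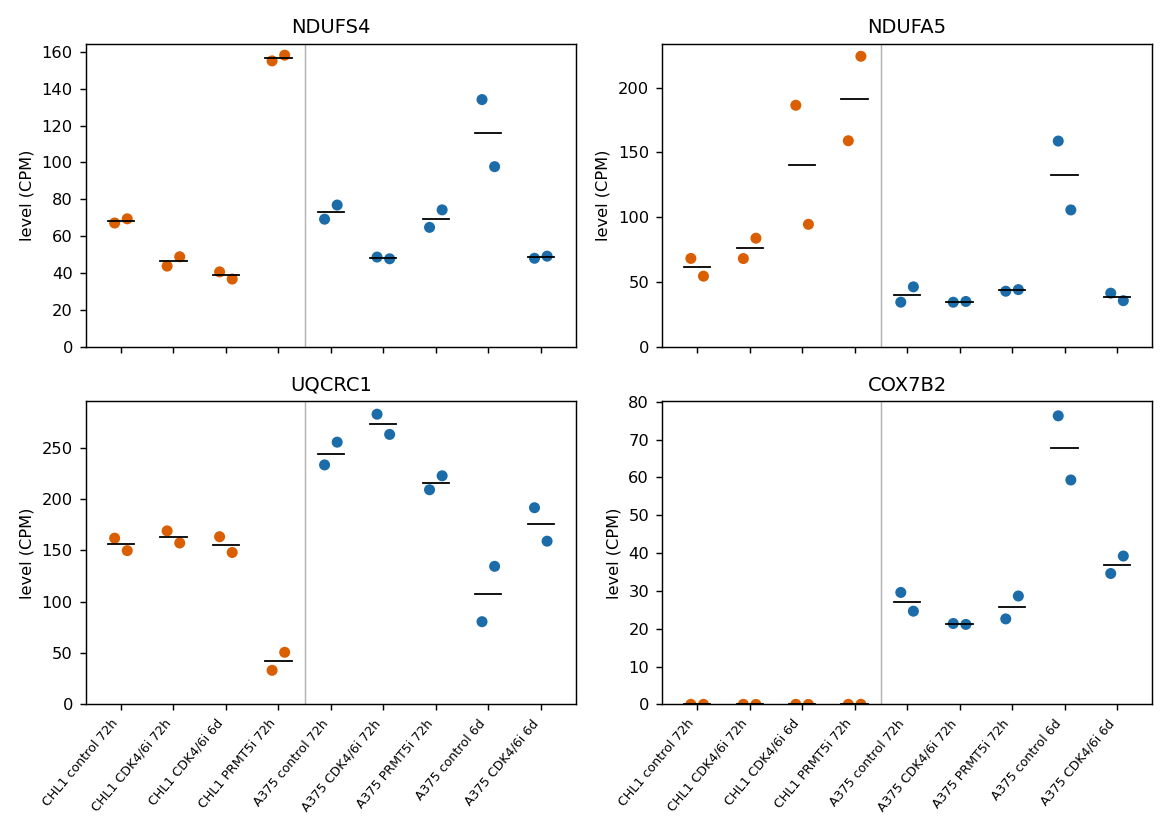
Level (CPM) of NDUFS4, NDUFA5, UQCRC1 and COX7B2 in each library, by group, with 2 points per group. NDUFS4 and NDUFA5 are high and UQCRC1 is low in both CHL1 PRMT5i and the A375 control of 6 days, and COX7B2 is near 0 in every CHL1 library.

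The 3 mitochondrial calls under PRMT5i in CHL1 were smaller than the 5 largest nuclear rises and falls, MT-ATP8 only just so beside SDHD (1.02). They lay within the range of all nuclear calls. MT-ATP8 rose from 7.8 and 6.1 to 15.3 and 12.5 CPM (1.01 ± 0.23, adjusted p = 0.002745, edgeR). MT-ND1 fell from 517 and 439 to 312 and 282 CPM (-0.69 ± 0.20, adjusted p = 0.01163, edgeR). MT-CO2 fell from 645 and 553 to 482 and 371 CPM (-0.49 ± 0.19, adjusted p = 0.04767, edgeR) and was not called with median-of-ratios scaling. MT-ATP8, the member of lowest GC content in mitochondrial DNA, was not called with the GC correction (0.14, adjusted p = 0.6597), while MT-ND6 was (-0.61, adjusted p = 0.03828). MT-CO1 had 2849 and 2131 CPM against 3229 and 2972 CPM in the control.

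**Figure D4:**
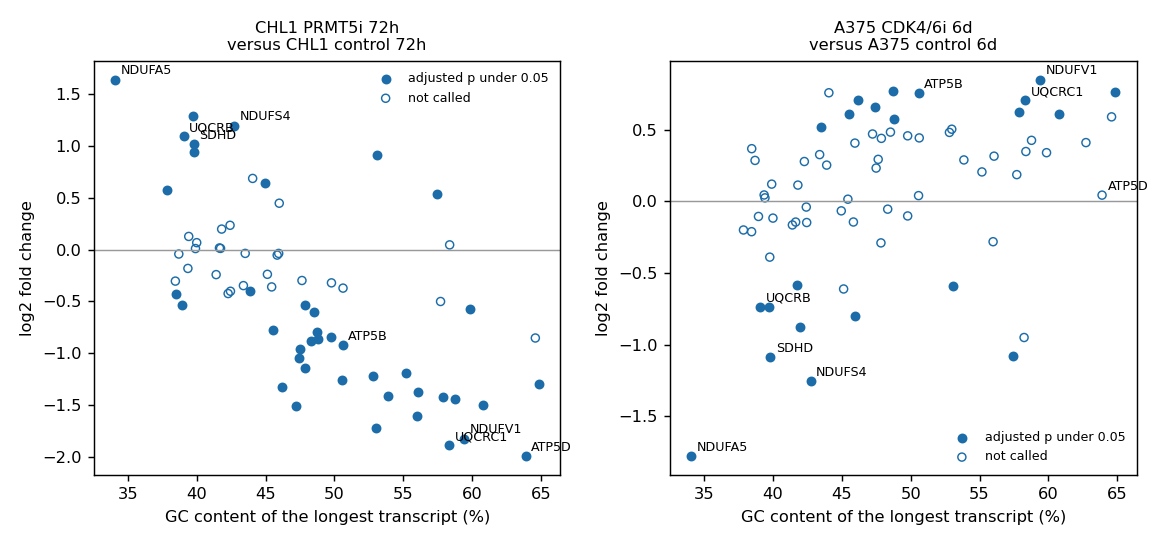
GC content of the longest transcript (percent) against log2 fold change for each nuclear member with a mean of at least 1 CPM, in CHL1 PRMT5i at 72 hours and in A375 CDK4/6i at 6 days. The slope is downward in CHL1 (rho -0.676) and upward in A375 (rho 0.475).

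The response to PRMT5i differed between the lines. CHL1 minus A375, in a fit of all 18 libraries, called 3 members higher and 38 lower where 18.8% of all genes were called higher and 22.1% lower. Of these, 37 of the lower and all 3 higher were nuclear, and the only mitochondrial gene was MT-ND1 (-1.21 ± 0.43, adjusted p = 0.03002, edgeR). NDUFA5 (1.5 ± 0.38), NDUFS4 (1.23 ± 0.24) and ATP5L (0.87 ± 0.27) were the 3 higher. The 5 lowest were NDUFV1 (-2.13 ± 0.30), COX5B (-2.02 ± 0.32), ATP5D (-1.94 ± 0.31), NDUFB7 (-1.84 ± 0.36) and ATP5I (-1.84 ± 0.52). The median difference was -0.73 for nuclear members, -0.51 for mitochondrial members and -0.09 for all genes. By complex, 15 of 32 were lower in complex I, 3 of 4 in complex II, 5 of 8 in complex III, 7 of 11 in complex IV and 6 of 12 in complex V. With the GC correction 25 of the 41 calls were shared in direction, and of these 8 named nuclear members NDUFS4 (0.69), NDUFV1 (-0.91) and COX5B (-1.31) were still called, at smaller sizes. MT-ND1 had -1.10 there and was not called (adjusted p = 0.07782).

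The response to CDK4/6i at 72 hours was not found to differ between the lines for any member, with edgeR or DESeq2, where 0.241% of all genes were called higher and 0.401% lower and 7 members had an unadjusted p under 0.05. The median difference, CHL1 minus A375, was -0.26 for nuclear members and -0.80 for mitochondrial members. For NDUFS4 it was -0.02 ± 0.24, so that an equal fall in both lines lay near the middle of its interval. For MT-CO1 it was 0.13. With only the 8 libraries of these groups in the fit, 7 members were called lower in CHL1, 6 of them mitochondrial. The counts over all genes in that fit are not given here, so these 7 cannot be set against a share of all genes.

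Summed within a library, the mitochondrial to nuclear ratio of counts sets the genomes against each other without library scaling. As a sum it follows the abundant genes and need not match the medians over members. Under PRMT5i in A375 the ratio changed by -0.02 on the log2 scale, beside medians of 0.42 for mitochondrial and 0.28 for nuclear members. Its log2 value was 1.22 and 1.2 in the CHL1 control. It was 1.75 and 1.48 with CDK4/6i for 72 hours, 1.62 and 1.60 for 6 days, and 1.5 and 1.05 with PRMT5i. Both CDK4/6i groups lay above the control, by 0.41 (1.33-fold) and 0.40 (1.32-fold) on average, while PRMT5i overlapped it. In A375 the ratio was -0.18 and -0.75 for the 72-hour control, 0.10 and 0.18 for CDK4/6i and -0.46 and -0.51 for PRMT5i. It was 1.2 and 0.88 for the 6-day control and 0.20 and 0.02 for 6 days of CDK4/6i. CDK4/6i thus lay above its control at 72 hours (1.52-fold) and below it at 6 days (0.526-fold). No test is given for a ratio summed over members.

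**Figure D5:**
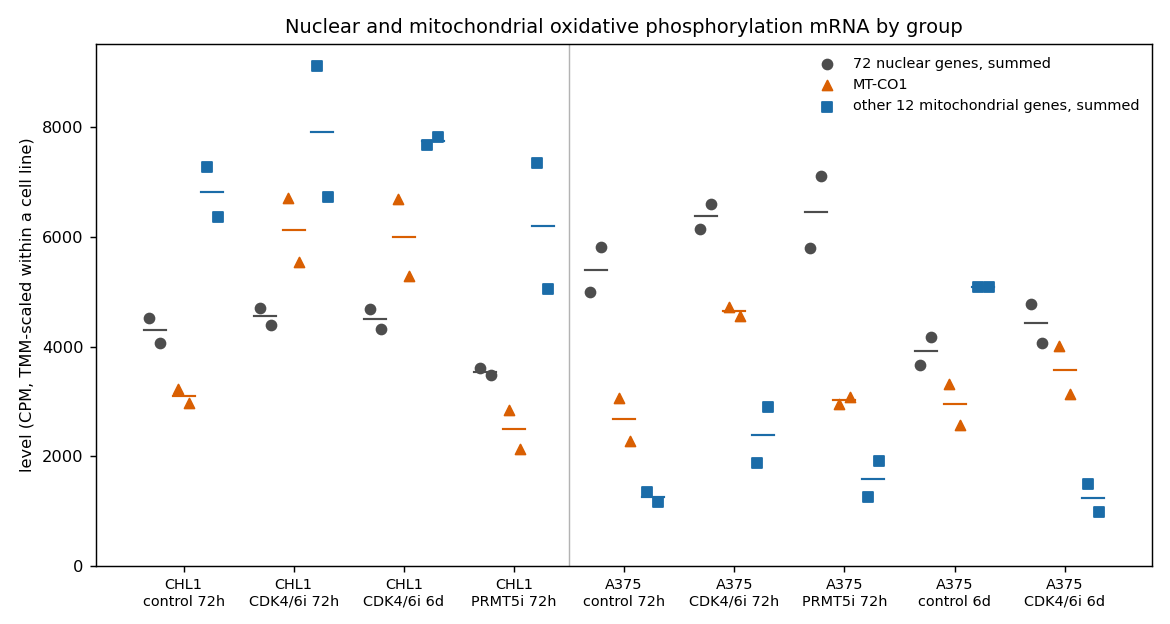
Summed CPM of the 72 nuclear members, CPM of MT-CO1 and summed CPM of the other 12 mitochondrial genes in every library, by group, with bars at the means. The other 12 reach 5083 and 5090 CPM in the A375 control of 6 days and stay at or below 2895 CPM in the remaining A375 libraries.

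MT-CO1 was set apart from the other 12 after its values had been seen. It made up 31.3% ± 0.767 (SD, n = 2) of the mitochondrial CPM in the CHL1 control, 43.8% ± 1.95 after 72 hours of CDK4/6i, 43.5% ± 4.42 after 6 days and 28.8% ± 1.26 with PRMT5i. In A375 it made up 67.8% ± 2.53 in the 72-hour control, 66.3% ± 7.28 with CDK4/6i and 65.9% ± 6.05 with PRMT5i. At 6 days it made up 36.5% ± 4.22 in the control and 74.6% ± 2.31 with CDK4/6i. In CPM, the other 12 summed to 7277 and 6368 in the CHL1 control and to 9113 and 6725 under CDK4/6i at 72 hours, with overlapping groups. In CHL1 the rise of the ratio under CDK4/6i thus came mostly from MT-CO1. Without MT-CO1 it was 0.12 on the log2 scale at both times. In A375 at 72 hours it was 0.66 without MT-CO1.

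Other genes of mitochondrial respiration were counted in lists beside the members. Their counts are to be read against the shares of all genes called, which were 26.4% higher and 27.6% lower under PRMT5i in CHL1, and 21.8% and 21.3% at 6 days in A375. Under CDK4/6i at 72 hours these shares were 2.27% and 2.72% in CHL1 and 6.22% and 7.11% in A375. The list values for CHL1 PRMT5i and for A375 at 6 days carry the GC trend, whose part in them was not tested. Of 42 assembly factors of the respiratory complexes in the table, 19 rose and 15 fell under PRMT5i in CHL1, 8 rose and 13 fell after 6 days of CDK4/6i in A375, and 0 rose and 3 or 4 fell under CDK4/6i at 72 hours in CHL1 and A375. After 6 days in CHL1, 1 rose and 6 fell. NDUFAF6, an assembly factor of complex I, fell in CHL1 from 60.8 and 62.3 to 35.1 and 38.6 CPM at 72 hours (-0.74 ± 0.16) and to 35.2 and 32.1 CPM at 6 days (-0.87 ± 0.16), and COX20, an assembly factor of complex IV, fell at 6 days (-0.96 ± 0.19). NDUFAF2 fell in A375 at 72 hours from 63.0 and 56.5 to 31.8 and 33.0 CPM (-0.88 ± 0.20). Under PRMT5i in CHL1, NDUFAF3 (-2.38 ± 0.22) and FOXRED1 (-1.76 ± 0.18), both of complex I, had the largest falls of the lists. BCS1L, of complex III, rose at 6 days in A375 (1.17 ± 0.23).

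The genes that maintain and transcribe mitochondrial DNA were few among the calls under CDK4/6i at 72 hours, where few genes were called in all. Of 30 in the table, none rose and none fell in CHL1, and none rose and 1 fell in A375. Under PRMT5i in CHL1 17 rose and 8 fell, and at 6 days in A375 8 rose and 7 fell. TFAM, which packages mitochondrial DNA and starts its transcription, rose under PRMT5i in CHL1 from 101 and 85.4 to 263 and 275 CPM (1.53 ± 0.22) and fell at 6 days in A375 from 215 and 137 to 71.5 and 58.9 CPM (-1.43 ± 0.22). C10orf2, the mitochondrial helicase Twinkle, rose there (1.07 ± 0.20).

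Of 16 nuclear regulators, 1 rose and 2 fell under CDK4/6i at 72 hours in CHL1. PPARD, a receptor for fatty acids, rose from 67.3 and 67.8 to 122 and 119 CPM at 72 hours (0.83 ± 0.16) and to 143 and 117 CPM at 6 days (0.94 ± 0.16), and PPARGC1B, a coactivator of mitochondrial genes, fell at 72 hours from 27.0 and 28.9 to 16.2 and 17 CPM (-0.75 ± 0.17). In A375, 0 rose and 2 fell at 72 hours, among them NRF1, from 83.1 and 77.2 to 42.3 and 43.2 CPM (-0.91 ± 0.18, adjusted p = 0.00307, edgeR). GABPB2, which encodes a subunit of GABP, fell under PRMT5i in A375 (-0.78 ± 0.20), where no member was called. Both A375 comparisons share their control.

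Among 10 electron carriers and other chain members outside the name pattern, 4 rose and 2 fell under PRMT5i in CHL1. CYCS, which encodes cytochrome c, rose from 180 and 147 to 446 and 542 CPM (1.60 ± 0.26). At 6 days in A375 none rose and 2 fell, GPD2, which feeds electrons from glycerol 3-phosphate to ubiquinone, by 1.40 ± 0.22 on the log2 scale. At 72 hours in A375 ATPIF1, the inhibitor protein of the ATP synthase, rose from 14.6 and 17.9 to 27.6 and 31.5 CPM (0.86 ± 0.24). AOX1, a molybdenum oxidase placed in the list but not part of the chain, rose at 72 hours under CDK4/6i (0.75 ± 0.24) and PRMT5i (1.54 ± 0.24) in A375 and at 6 days in CHL1 (1.27 ± 0.39), there at no more than 1.19 CPM. Of 19 enzymes of the tricarboxylic acid cycle, 5 rose and 10 fell under PRMT5i in CHL1, 6 rose and 5 fell at 6 days in A375, and no more than 1 was called in each of the other 4 comparisons.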

How the data were processed

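Poly-A RNA of 18 libraries was sequenced by the authors in paired ends. Their processing notes name FastQC 0.11.6, HISAT2 2.0.4, Picard 2.17.3, SAMtools 1.18 and HTSeq 0.11.2 with GRCh37, while the paper's methods give a later HTSeq version. The authors deposited whole-number counts per gene for 20705 symbols after removing genes of low expression, and these were used as raw counts, although the table's name speaks of normalization. The members and gene lists were chosen with earlier results of these data known.

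Counts were tested with edgeR 4.0.16 in R 4.3.3 (TMM, quasi-likelihood F-test, Benjamini-Hochberg over all genes, adjusted p under 0.05), in 1 fit per line (8 CHL1, 10 A375 libraries) or of all 18 libraries for differences between lines. The SE is that of the log2 fold change. Checks on simulated counts with known changes preceded the fits. The SE includes the spread between libraries, while the floor of 3 counts covers counting error only, since reads were not tagged by molecule.

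GC content came from the longest transcript in GENCODE on GRCh37 (70 members matched by the same symbol, 15 by an older one). The GC correction was a loess curve (span 0.4) entered as an offset. The alternatives were median-of-ratios scaling, a filter of 1 CPM in 2 libraries, only genes with a GC value, the GC correction, a replicate block, only the groups compared, 6 or all 18 libraries, mitochondrial genes left out, the 72-hour control for 6 days, DESeq2 1.42.0 and leaving out each library.

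Replicate numbers pair libraries only where the data bear it out. In A375 at 72 hours, deviations of same-numbered libraries from their group means correlated by 0.192, 0.422 and 0.22 between the 3 groups over 15073 genes, so the blocked counts are given beside those results. The labels do not state the pairing, the correlations come from these same data, and the summed mitochondrial level did not follow it.

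Named were all mitochondrial members, the 5 nuclear members with the largest rise and the 5 with the largest fall among those called in a comparison (mean at least 1 CPM, groups not overlapping), SDHA to SDHD, isoform genes, and of the related lists the 2 largest rises and falls per treatment. A gene that this rule would name in the comparison of controls is not reported here.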

Additional observations from a re-analysis of the deposited data

Results flagged for a closer look

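Some differences between responses stood out by a test of the difference itself, and every value here is a log2 difference with its SE and edgeR's adjusted p over all genes. In A375 the response to CDK4/6i at 6 days minus the response at 72 hours was below 0 for 12 mitochondrial genes. It was -5.02 ± 0.57 for MT-ATP8 (adjusted p = 0.0003496), -4.95 ± 0.51 for MT-ND3 (0.0001744), -4.21 ± 0.47 for MT-ATP6 (0.0002813) and -4.13 ± 0.47 for MT-ND2 (0.0003496). It was -3.75 ± 0.44 for MT-CO2 (0.0004805), -3.69 ± 0.48 for MT-ND4L (0.001023), -3.47 ± 0.42 for MT-ND4 (0.0006139), -3.22 ± 0.41 for MT-ND6 (0.0009668) and -3.22 ± 0.45 for MT-ND1 (0.002282). The smallest were MT-ND5 with -3.01 ± 0.39 (0.001005), MT-CYB with -2.26 ± 0.33 (0.002879) and MT-CO3 with -1.93 ± 0.31 (0.006156). These 12 genes rose or leaned upward at 72 hours and fell at 6 days. Among nuclear members NDUFA5 (-1.56 ± 0.30, adjusted p = 0.01851) and SDHD (-1.19 ± 0.27, adjusted p = 0.04654) differed in the same direction. The times differ in library set as well as in duration, and the 6-day control carries the GC trend described above, so these cannot be told apart.

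The response to PRMT5i, CHL1 minus A375, differed for 9 named members. It was above 0 for NDUFA5 (1.5 ± 0.38, adjusted p = 0.004604), NDUFS4 (1.23 ± 0.24, 0.0007965) and ATP5L (0.87 ± 0.27, 0.01565). It was below 0 for NDUFV1 (-2.13 ± 0.30, 0.0001699), COX5B (-2.02 ± 0.32, 0.0002652), ATP5D (-1.94 ± 0.31, 0.000277), NDUFB7 (-1.84 ± 0.36, 0.0007837), ATP5I (-1.84 ± 0.52, 0.008565) and MT-ND1 (-1.21 ± 0.43, 0.03002). The CHL1 PRMT5i libraries carry the GC trend, and with the GC correction NDUFS4 (0.69), NDUFV1 (-0.91) and COX5B (-1.31) of these 9 were still called, at smaller sizes, and MT-ND1 had -1.10 and was not (adjusted p = 0.07782).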

How the results depend on the processing

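Calls on members of CHL1 CDK4/6i at 72 hours numbered 2 with the filter of 1 CPM or with only genes having a GC value, 5 with the GC correction alone or with the replicate block added, 6 with only the groups compared, 4 with DESeq2 and 0 with any library left out. At 6 days they numbered 9 with the GC correction alone or with the block added, 5 with the block, 6 with only the groups compared, 6 with DESeq2 and 0 to 4 with a library left out. For A375 CDK4/6i at 72 hours they numbered 16 with the GC correction, 51 with the replicate block and 25 without it in the 6 libraries of 72 hours, 36 with only the groups compared, 11 with all 18 libraries and 0 to 7 with a library left out. For A375 at 6 days they numbered 8 with the 72-hour control, 19 with only the groups compared (1 higher) and 23 to 52 with a library left out. For A375 PRMT5i they numbered 2 with the GC correction, 46 with the block and 10 without it in the 6 libraries. The A375 difference between times had 11 to 39 calls with a library left out (39 without 6-day control replicate 2), the PRMT5i difference between lines 27 to 45 (27 without A375 control replicate 1), and the CDK4/6i difference between lines 7 with only the groups compared. CHL1 PRMT5i had 33 to 50 and the comparison of controls 38 to 39 with a library left out. The cause of these changes was not tested. Calls over all genes changed with the setting too. For CHL1 CDK4/6i at 72 hours they were 2031 higher and 2171 lower of 20705 with only the groups compared, beside 469 and 563 in the main fit. The member counts in this paragraph are therefore not a result about the members. A lone library left in a group is assumed to vary like the others.

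In CHL1 same-numbered libraries correlated by -0.308 to 0.424, so the block there shares only a number. It gave 1 call at 72 hours, 5 at 6 days and 48 under PRMT5i. With 14 numbered libraries the block gave 0, 49 and 57 calls for the CDK4/6i difference, the PRMT5i difference and the controls.

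With the median level of each genome's members in a library in place of their sum, the log2 difference in mitochondrial to nuclear ratio was -0.20 and -0.14 in CHL1 under CDK4/6i at 72 hours and 6 days, opposite in sign to that of the sums, 0.93 and -3.14 in A375, and 3.69 between controls. Summed without MT-CO1, the difference was 0.12 and 0.12 in CHL1, -2.25 in A375 at 6 days and 2.77 between controls, and with the GC correction 0.46 in CHL1 at 6 days. With the 72-hour control, 8 changes of A375 at 6 days reversed: NDUFV1 -0.24, NDUFB7 -0.13, ATP5B -0.39, NDUFB11 -0.28, COX7B2 0.44, MT-CO2 0.10, MT-CO3 0.083 and MT-CYB 0.27. With the GC correction the PRMT5i difference of ATP5L was -0.0083. Over named members 2295 values kept their side of the threshold, called or not, 109 lost a call, 77 gained one and 9 reversed.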

Other observations

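Many nuclear members that rose or fell under PRMT5i in CHL1 stood the same way in the A375 control of 6 days against that of 72 hours, a pattern noticed after the values were seen. Of the 10 that rose, 7 were above both 72-hour controls in both 6-day controls and 3 overlapped. Of the 32 that fell, 26 were below both. The same counts over all genes were not made, so the pattern cannot be called particular to these members. NDUFA5 had 159 and 224 CPM in the first group and 159 and 106 CPM in the second, beside 68.3 and 54.6 CPM in the CHL1 control and 34.6 and 46.4 CPM in the A375 control of 72 hours. NDUFS4 had 155 and 158 CPM and 134 and 97.7 CPM, beside 67.2 and 69.5 CPM and 69.3 and 76.9 CPM. Members low in both included UQCRC1, with 33.2 and 50.8 CPM and 80.6 and 134 CPM, beside 162 and 150 CPM and 233 and 255 CPM. The 2 groups differ in line, treatment and time, belong to the same library set, and are those whose GC-rich genes were lowest. Of the mitochondrial genes, MT-ATP8, which rose under PRMT5i, was also high in the 6-day control, with 14.9 and 8.7 CPM beside 1.0 and 0.84 CPM at 72 hours, whereas MT-ATP6 had 537 and 382 CPM under PRMT5i and 521 and 456 CPM in the control of CHL1, but 421 and 422 CPM in the A375 control of 6 days and 53.0 and 53.3 CPM in that of 72 hours.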
